A study of Mus musculus with 6 samples.

Results

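Meningeal fibroblast genes were followed in the anterior cingulate cortex of mice, as 10 genes chosen by symbol among the 14250 rows of the count table. All 10 were found, and all 10 passed the filter on low counts, which removed 0 rows. The 3 LPS mice received lipopolysaccharide (LPS, a bacterial endotoxin, 50 µg per kg) and the 3 saline mice received pyrogen-free saline, by injection into the abdomen on postnatal day 14. Mice of both groups were C57BL/6, were housed alike, and gave tissue on postnatal day 45 after cold perfusion and dissection of brain slices by hand. Each library held polyadenylated RNA of 1 mouse. Total counts were 36168687 to 41270737 in the LPS libraries and 37416194 to 39804999 in the saline libraries. Summed markers of cortical neurons were at 6305 to 6623 CPM (counts scaled to library size) in LPS mice, against 6098 to 6762 CPM in saline mice, and each of the 7 fixed neuronal markers was detected in every library.

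The meninges are the sheets of connective tissue that wrap the brain. Their fibroblasts secrete collagens and proteoglycans, form part of the barrier between blood and cerebrospinal fluid through the arachnoid layer, and release growth factors and carrier proteins into that fluid. The cingulate cortex lies along the midline, where the inner meninges cover its surface, and fibroblasts also line larger vessels that enter the tissue. The genes were ordered here by role, from matrix proteins to growth factor signalling and to secreted enzymes and transporters.

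One library stood apart in these genes. Saline 1 was the lowest of the 6 libraries in 9 of the 10 genes, against 16.1% of all genes tested, and the exception was Igf2. In Saline 1 the 9 genes stood at 37.3% (Fmod) to 71.3% (Igfbp2) of the mean of the other saline libraries. In the mean log2 CPM of the 10, LPS 1 was likewise the lowest LPS library. It lay at -0.15 from the mean of the 6 libraries, against -0.80 in Saline 1. LPS 3 was the highest library in 7 of the 10, for which the share of all genes is not given here. By edgeR's quasi-likelihood test with Benjamini-Hochberg adjustment over all genes, 0 of the 10 rose and 0 fell in LPS mice, where 0.0982% of all genes rose and 0.189% fell. At an unadjusted p under 0.05 there were 0 of the 10 in edgeR, where 3.63% of all genes were higher and 3.54% lower in LPS. Col3a1 alone had such a p in DESeq2 and in limma-voom, with a higher level in LPS, beside 3.38% and 3.68% of all genes. At the adjusted threshold 0 of the 10 passed in DESeq2 and 0 in limma-voom, beside 0.982% and 0.239% of all genes. Because the tissue was bulk, fewer fibroblasts and less RNA per fibroblast cannot be told apart.

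**Figure D1:**
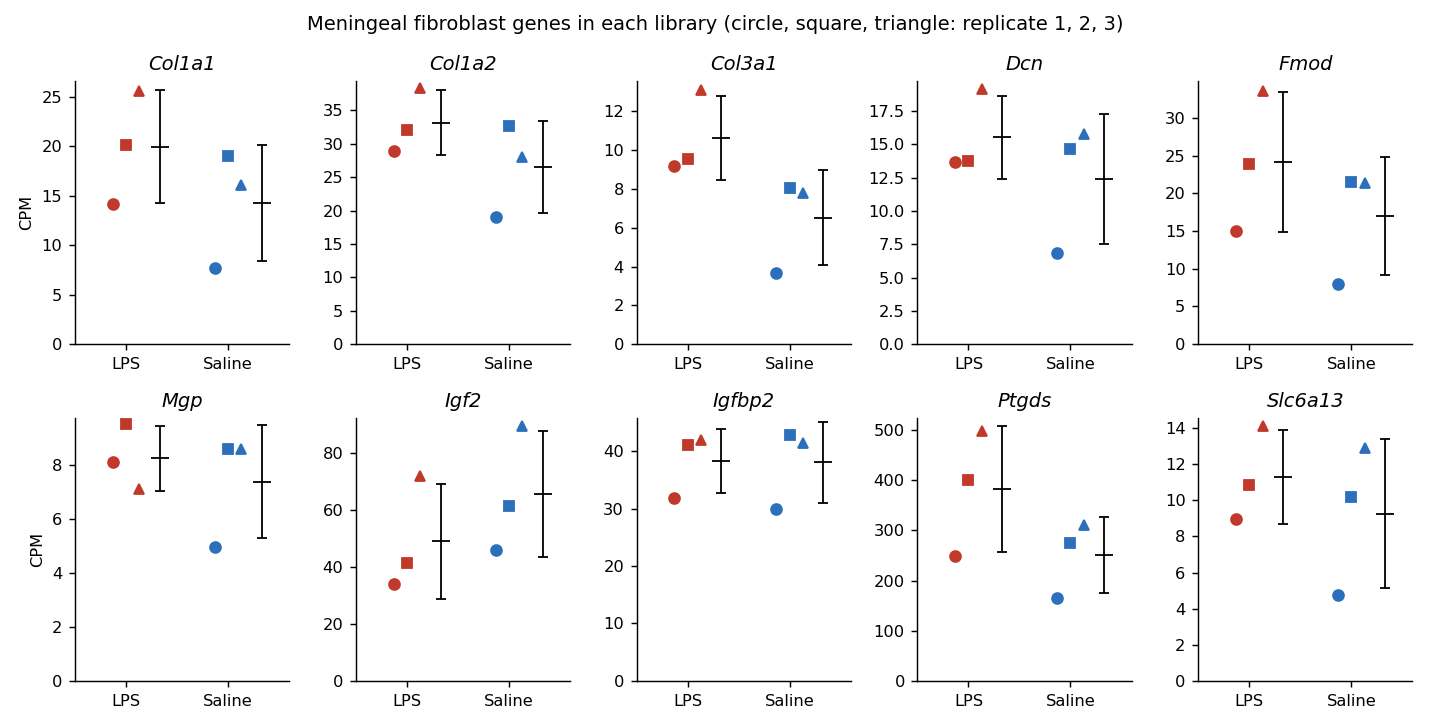
TMM-scaled CPM (counts scaled to library size) of each of the 10 genes in the 3 LPS libraries (red, left) and the 3 saline libraries (blue, right), with the replicate number as the symbol and the mean ± SD of 3 in black. Saline 1 (blue circle) is the lowest point in every panel except Igf2, where LPS 1 is lowest at 34.0 CPM.

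The fibrillar collagens came first among the matrix genes. Col1a1 and Col1a2 encode the chains of type I collagen, the main fibre-forming collagen of connective tissue. Col1a1 (GRCm38 chromosome 11, 94936224 to 94953042, plus strand) had 14.2, 20.1 and 25.6 CPM in the LPS libraries, against 7.67, 19.0 and 16.1 CPM in the saline libraries. Only Saline 1 lay outside the LPS range, so the groups overlapped. Its log2 change was 0.48 (SE 0.421, edgeR adjusted p = 0.845). Col1a2 (chromosome 6, 4504814 to 4541544, plus strand) had 28.9, 32.1 and 38.4 CPM in the LPS libraries, against 19.0, 32.6 and 28.0 CPM in the saline libraries. Saline 1 was again the low library, and Saline 2 lay above LPS 1 and LPS 2. Its log2 change was 0.32 (SE 0.22, edgeR adjusted p = 0.807).

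Col3a1, which encodes type III collagen, a partner of type I in pliable tissue, was the single gene of the 10 whose groups did not overlap. Col3a1 (chromosome 1, 45311538 to 45349706, plus strand) had 9.18, 9.57 and 13.1 CPM in the LPS libraries, against 3.69, 8.07 and 7.81 CPM in the saline libraries. Every LPS library lay above every saline library, which held for 6.84% of all genes tested. The log2 change was 0.70 (SE 0.325) and did not pass (edgeR adjusted p = 0.735; DESeq2 adjusted p = 0.300; limma-voom adjusted p = 0.643). Its 95% interval ran from -0.10 to 1.50. Without Saline 1 the log2 change was 0.42 (SE 0.172, edgeR adjusted p = 0.813). Counts were lowest here, with 141 in Saline 1 and an exact 95% Poisson interval of 119 to 166, which covers counting error only and stays below the next library at 297 counts.

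Per length, in the authors' FPKM (fragment counts scaled by gene length and library size), the ratio of Col3a1 to Col1a2 was 0.305, 0.271 and 0.327 in the LPS libraries, against 0.186, 0.220 and 0.267 in the saline libraries. This ratio separated the groups, with a narrow gap between LPS 2 and Saline 3. The ratio of Col1a1 to Col1a2 was 0.442, 0.535 and 0.602 in the LPS libraries, against 0.364, 0.487 and 0.520 in the saline libraries. Here the groups overlapped. For Col1a2, FPKM and CPM did not keep a constant ratio over the libraries. It had 28.9 CPM and 5.03 FPKM in LPS 1, against 32.6 CPM and 6.11 FPKM in Saline 2. The effect of this on the narrow gap was not tested. Both collagen ratios were formed after the values were seen and were given no test.

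Promoters of 3 collagen and proteoglycan genes, each lowest in Saline 1 and highest in LPS 3, are shown from RefSeq (GRCm38.p6), as 250 bases before and 50 bases after the annotated start. Of the 10 genes, 7 matched the RefSeq table, with 13 annotated starts. The windows shown are chr6:4505368-4505667 for Col1a2, chr1:45311288-45311587 for Col3a1 and chr1:134037004-134037303 for Fmod, all on the plus strand. Capitals mark CCAAT or its reverse complement and, in Col3a1, TATAAA.
Col1a2: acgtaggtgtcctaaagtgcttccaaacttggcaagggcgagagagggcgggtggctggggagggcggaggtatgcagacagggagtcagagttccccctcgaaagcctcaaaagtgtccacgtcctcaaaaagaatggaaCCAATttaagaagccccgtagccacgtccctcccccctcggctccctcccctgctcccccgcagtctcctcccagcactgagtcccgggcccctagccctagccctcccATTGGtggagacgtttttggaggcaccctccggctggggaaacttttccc
Col3a1: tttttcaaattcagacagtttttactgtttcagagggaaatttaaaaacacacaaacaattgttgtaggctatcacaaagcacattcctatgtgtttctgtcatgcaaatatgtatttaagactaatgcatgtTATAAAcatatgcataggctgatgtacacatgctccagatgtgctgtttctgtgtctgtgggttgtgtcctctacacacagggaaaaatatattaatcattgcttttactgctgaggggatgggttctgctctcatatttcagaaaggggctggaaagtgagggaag
Fmod: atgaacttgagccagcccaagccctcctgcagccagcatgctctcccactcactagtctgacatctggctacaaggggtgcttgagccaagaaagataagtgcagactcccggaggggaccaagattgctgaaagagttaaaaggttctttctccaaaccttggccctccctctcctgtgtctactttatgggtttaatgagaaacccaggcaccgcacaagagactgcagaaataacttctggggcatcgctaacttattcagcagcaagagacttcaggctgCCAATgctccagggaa
CCAAT was searched on both strands and lay in Col1a2 and Fmod but not in this window of Col3a1. In Col1a2 its offsets from the annotated start were -109 and, on the opposite strand, 0. In Fmod the offset was 34, after the start. The Col1a2 window lies inside the gene span given above. Among all 32851 promoter windows of the same length, 37.4% held CCAAT, as did 5 of the 13 windows of these genes. TATAAA was held by 13.6% of all windows, and by 1 of the 13. GGGCGG lay in 5 of the 13 windows, Col1a2 included, and in 35.7% of all windows. These shares describe letters only.

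The small leucine-rich proteoglycans coat collagen fibrils and set their thickness. Dcn, for decorin (chromosome 10, 97479609 to 97518143, plus strand), had 13.6, 13.7 and 19.1 CPM in the LPS libraries, against 6.84, 14.6 and 15.8 CPM in the saline libraries. Apart from Saline 1 and LPS 3, the libraries lay close together. The log2 change was 0.32 with all libraries (SE 0.358, edgeR adjusted p = 0.889) and 0.03 without Saline 1 (SE 0.161). Fmod, for fibromodulin (chromosome 1, 134037254 to 134048277, plus strand), had 15.0, 23.9 and 33.6 CPM in the LPS libraries, against 8.01, 21.5 and 21.4 CPM in the saline libraries. It had the widest spread of the 10, with 4.19-fold between LPS 3 and Saline 1. Its log2 change was 0.51 (SE 0.527, edgeR adjusted p = 0.884), with a 95% interval from -0.91 to 1.92.

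Mgp, for matrix Gla protein (chromosome 6, 136872435 to 136875823, minus strand), inhibits calcification and is made by fibroblasts and by arterial smooth muscle. It had 8.13, 9.54 and 7.12 CPM in the LPS libraries, against 4.98, 8.59 and 8.62 CPM in the saline libraries. Unlike the collagens, Mgp was not high in LPS 3, which held the lowest of the LPS values. The log2 change was 0.16 (SE 0.221, edgeR adjusted p = 0.911), and -0.058 without Saline 1 (SE 0.152).

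Igf2 and Igfbp2 belong to the insulin-like growth factor axis. Igf2 is an imprinted growth factor gene, which in the adult brain is known mainly from the meninges and choroid plexus, and Igfbp2 encodes a secreted protein that binds such factors. Igf2 (chromosome 7, 142650766 to 142666816, minus strand) had 34.0, 41.3 and 72.0 CPM in the LPS libraries, against 46.0, 61.4 and 89.5 CPM in the saline libraries. The lowest values were in LPS 1 and LPS 2 and the highest in Saline 3, with LPS 3 inside the saline range. Its log2 change was the single negative value of the 10, at -0.42 (SE 0.417, edgeR adjusted p = 0.873), and -0.62 without Saline 1 (SE 0.442). In the annotation, 64.5% of its exonic bases are shared with other annotated genes, including the antisense gene Igf2os, so its reads are uncertain. None of those bases were shared with another gene tested here.

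Igfbp2 (chromosome 1, 72824503 to 72852474, plus strand) had 31.8, 41.0 and 41.9 CPM in the LPS libraries, against 30.0, 42.8 and 41.3 CPM in the saline libraries. It varied least of the 10, and LPS 1 was nearly as low as Saline 1. The log2 change was 0.01 (SE 0.167, edgeR adjusted p = 0.998), with a 95% interval from -0.39 to 0.41. It turned to -0.14 without Saline 1, -0.05 without LPS 2 and -0.06 without LPS 3.

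Ptgds and Slc6a13 are tied to the fluid barrier. Ptgds encodes prostaglandin D2 synthase, a major protein of cerebrospinal fluid that oligodendrocytes also make. Ptgds (chromosome 2, 25466709 to 25470046, minus strand) had 248, 400.2 and 497 CPM in the LPS libraries, against 166, 276 and 311 CPM in the saline libraries. LPS 2 and LPS 3 were above all saline libraries, while LPS 1 lay among them. Its log2 change was 0.61 (SE 0.381, edgeR adjusted p = 0.803) and the 95% interval ran from -0.42 to 1.63. Summed CPM of 9 oligodendrocyte markers was 1962, 2704 and 2161 in the LPS libraries and 1959, 2421 and 2512 in the saline libraries. LPS 1 and Saline 1 were low as in Ptgds. LPS 3, the highest library in Ptgds, was below Saline 2 and Saline 3 in these markers. The part of oligodendrocytes in the Ptgds values was not tested.

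Slc6a13 encodes GAT2, a transporter of GABA and taurine found in the leptomeninges. Slc6a13 (chromosome 6, 121300227 to 121337733, plus strand) had 8.97, 10.8 and 14.1 CPM in the LPS libraries, against 4.74, 10.2 and 12.9 CPM in the saline libraries. Only Saline 1 lay below the LPS range, and the groups overlapped. With all libraries the log2 change was 0.28 (SE 0.409, edgeR adjusted p = 0.922) and -0.031 without Saline 1 (SE 0.205).

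**Figure D2:**
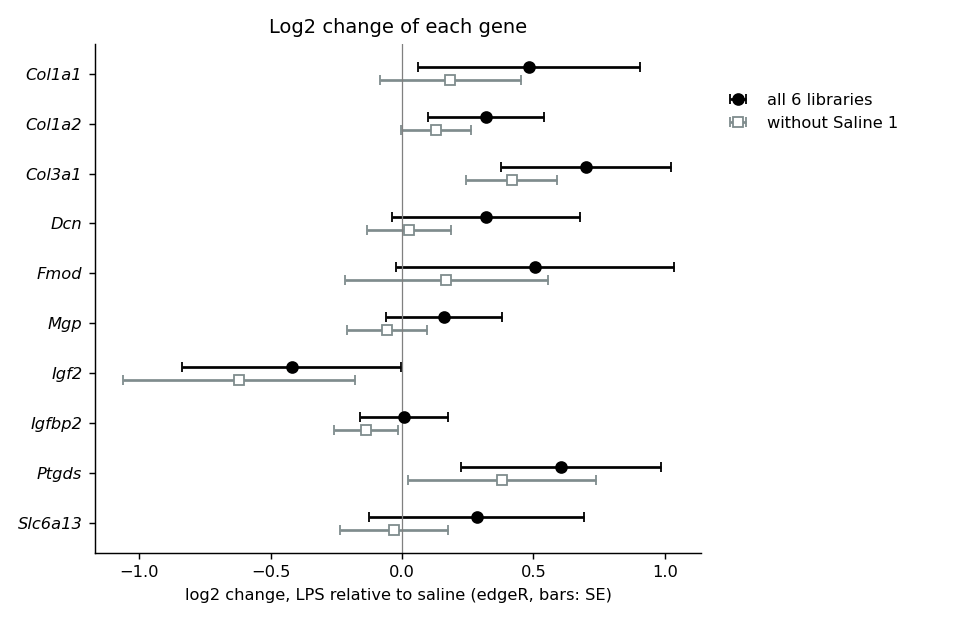
Log2 change of each gene in LPS relative to saline mice (edgeR), with all 6 libraries (black circles) and without Saline 1 (open squares); bars are the SE. With all libraries 9 of 10 points lie above 0, and without Saline 1 there are 6 above and 4 below.

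The median log2 change of the 10 genes was 0.32, beside 0.00 for all genes tested, and it was 0.08 without Saline 1. The log2 change was above 0 in 9 of the 10 genes, beside 50.4% of all genes. Without Saline 1 it was above 0 in 6 of the 10, beside 49.7% of all genes. In that fit 0 of the 10 passed edgeR's adjusted threshold, as 0.26% of all genes did. Only Col3a1 had an unadjusted p under 0.05 in it, with a higher level in LPS, beside 3% of all genes. It was also the only one of the 10 with every LPS library above Saline 2 and Saline 3, beside 11.7% of all genes.

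Levels per length covered a wide range. Ptgds stood far above the rest, with a mean over the 6 libraries of 360.3 in the authors' FPKM. Igfbp2 followed at 26.7 FPKM, and its lowest library, at 20.4 FPKM, was just under the highest Igf2 library at 20.6 FPKM. Igf2 averaged 12.6 FPKM and Mgp 11.6 FPKM, and their ranges overlapped. Dcn, Fmod and Col1a2 averaged 7.28, 6.05 and 5.23 FPKM, also with overlapping ranges. Slc6a13 (4.22 FPKM), Col1a1 (2.64 FPKM) and Col3a1 (1.41 FPKM) were the lowest.

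The spread between libraries was large for these genes. The SD of log2 CPM over the 6 libraries had a median of 0.54 over the 10, beside 0.13 over all genes tested. Fmod ranked highest, at the 97.9th percentile of all genes, and Igfbp2 lowest, at the 77.0th percentile. The SD of log2 CPM for Fmod was 0.58 within the LPS group and 0.82 within the saline group, and for Dcn 0.28 within the LPS group and 0.66 within the saline group. Averaged over the 10 genes, the deviation from the mean of the 6 libraries was -0.15, 0.17 and 0.48 on the log2 scale in LPS 1, LPS 2 and LPS 3, and -0.80, 0.12 and 0.18 in Saline 1, Saline 2 and Saline 3. By this average replicate 1 was the lowest library in both groups.

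**Figure D3:**
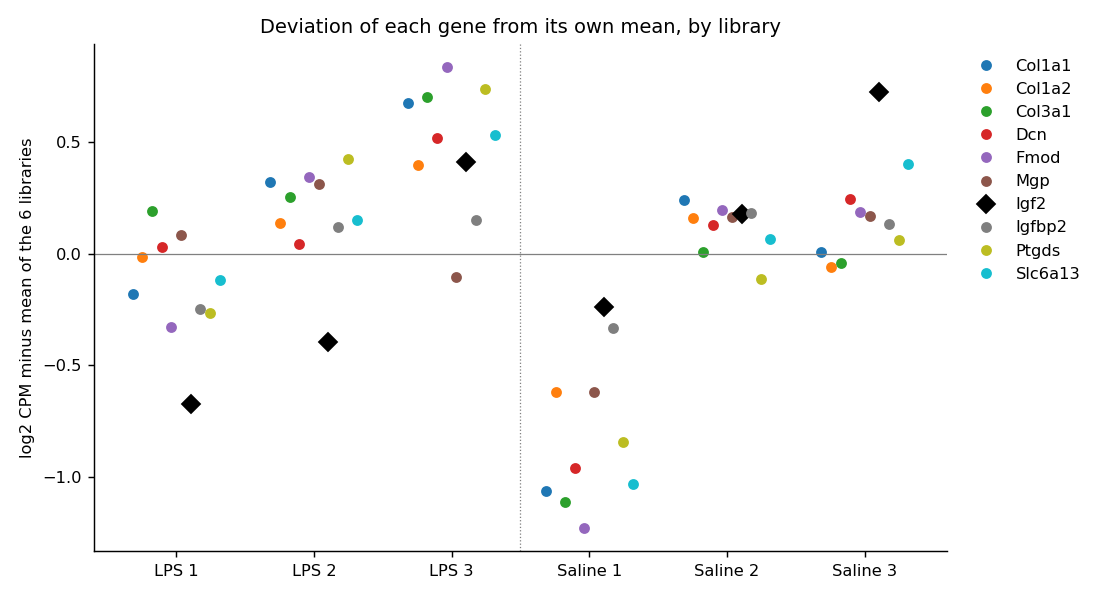
Log2 CPM of each gene minus its own mean over the 6 libraries, by library, with LPS libraries left of the dotted line and Igf2 as black diamonds. In Saline 1, 8 genes lie between -1.23 and -0.62, while Igf2 (-0.24) and Igfbp2 (-0.33) are closer to 0.

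Igf2 was then set against the other genes. On the log2 scale, relative to the mean of the other 9 genes in the same library, Igf2 was at 0.79, 0.74 and 1.28 in the LPS libraries, against 1.99, 1.43 and 1.97 in the saline libraries. All LPS values were below all saline values, a mean difference of -0.86. Such a separation downward, relative to the mean of the 10 genes, was seen in 3.21% of all genes, and the upward one in 0.168%. Col3a1 was separated upward in this measure (mean difference 0.48), and Igfbp2 downward (-0.36) by a narrow margin, with LPS 2 and Saline 3 both at 0.73. The other 7 overlapped. The median log2 change of the 10 genes was 0.32, so a gene without a change of its own lies lower in LPS by this measure. The log2 change of Igfbp2 itself was 0.01, and that of Igf2 was -0.42. Per length, the ratio of Igf2 to Dcn in the authors' FPKM was 1.09, 1.32 and 1.503 in the LPS libraries, against 2.88, 1.70 and 2.46 in the saline libraries. The LPS libraries were below Saline 2 and Saline 3 as well as below Saline 1. These relative measures were chosen after the values were seen and were given no test.

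**Figure D4:**
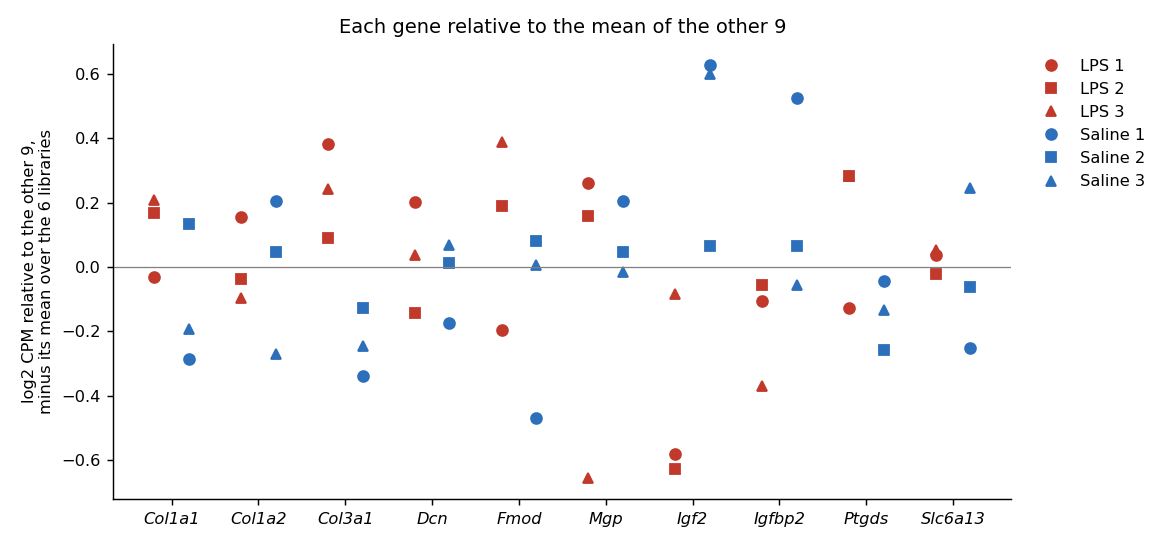
Log2 CPM of each gene relative to the mean of the other 9 genes in the same library, centred on its mean over the 6 libraries, for LPS (red) and saline (blue) libraries. The groups are apart for Igf2 and Igfbp2, where LPS is lower relative to the other genes, and for Col3a1, where LPS is higher. For Igfbp2 the gap is narrow, and its own log2 change was 0.01.

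Other genes of meninges and fibroblasts were read from 6 lists that share no gene with the 10, and 131 of their 146 genes were measured. By edgeR, 0 of the 131 rose and 0 fell, while 27 had an unadjusted p under 0.05 with a higher level in LPS and 1 with a lower level. Among all genes, 3.63% and 3.54% had such an unadjusted p. Without Saline 1 these were 16 higher and 3 lower of the 131, beside 3% and 3.01% of all genes. limma-voom called 0 and DESeq2 called 6 higher (0.421% of all genes). Without Saline 1 DESeq2 called 3 of the 131 (0.372% of all genes). The median log2 change of the 131 was 0.19, or 0.11 without Saline 1. Every LPS library lay above every saline library in 25 of the 131 (19.1%), beside 6.84% of all genes. Saline 1 was the lowest library in 74 of the 131 (56.5%).

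Collagen chains and their processing enzymes formed a list of 33 measured genes, of which 0 passed in edgeR and 10 had an unadjusted p under 0.05, all with a higher level in LPS, beside 3.63% of all genes. Their median log2 change was 0.28, and in 9 of the 33 every LPS library lay above every saline library, beside 6.84% of all genes. Without Saline 1 the median was 0.19, and 7 had an unadjusted p under 0.05 with a higher level in LPS, beside 3% of all genes. Col6a2, a chain of microfibril-forming type VI collagen, had 23.3, 26.5 and 23.5 CPM in the LPS libraries, against 14.01, 16.8 and 17.9 CPM in the saline libraries. Here the saline libraries were close together, Saline 1 the lowest. Its log2 change was 0.59 (SE 0.107, edgeR adjusted p = 0.0809; DESeq2 adjusted p = 0.000494). Col5a1, a chain of the type V collagen that starts fibrils, differed by log2 0.39 (SE 0.0797, edgeR adjusted p = 0.132; DESeq2 adjusted p = 0.00902). Sparc, a collagen-binding secreted protein gene, was called by DESeq2 as well (log2 0.25, DESeq2 adjusted p = 0.0302), but not without Saline 1 (DESeq2 adjusted p = 0.121).

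In the list of other matrix proteins, 0 of 31 passed in edgeR, with a median log2 change of 0.18. Lamc1, a laminin chain gene of basement membranes, had 55.3, 57.6 and 56.1 CPM in the LPS libraries, against 36.6, 42.9 and 44.5 CPM in the saline libraries. The groups were clear of each other, and the log2 change was 0.45 (SE 0.0803, edgeR adjusted p = 0.0787; DESeq2 adjusted p = 0.000742). Nid1, for the basement membrane protein nidogen, differed by log2 0.40 (SE 0.134, edgeR adjusted p = 0.527). Eln, for elastin, was called by DESeq2 (log2 0.73, DESeq2 adjusted p = 0.0207) but not without Saline 1 (DESeq2 adjusted p = 0.431). Sparc and Eln were chosen after their values were seen. Without Saline 1, DESeq2 still called Col6a2, Col5a1 and Lamc1, with adjusted p of 0.00467, 0.0383 and 0.000677.

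In the IGF axis list Saline 1 was the lowest library in 1 of the 13 measured (7.69%), and the median log2 change was -0.04. Igfbp3, another IGF binding protein gene, differed by log2 0.51 (SE 0.122, edgeR adjusted p = 0.258) and was called by DESeq2 with all libraries (adjusted p = 0.0415), not without Saline 1 (0.271). Irs2, an adaptor gene of insulin and IGF receptors, had -0.29 (SE 0.0874, edgeR adjusted p = 0.444).

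Among transport and barrier genes, Saline 1 was lowest in 12 of 17. Slc47a1, for an exporter of organic cations, had 2.41, 3.66 and 3.64 CPM in the LPS libraries, against 1.10, 1.67 and 1.95 CPM in the saline libraries (log2 1.04, SE 0.271, edgeR adjusted p = 0.339). The groups did not overlap. Slc22a8, for an organic anion transporter, differed by log2 0.24 (SE 0.104, edgeR adjusted p = 0.696). Among 19 transcription factor and retinoid genes, 9 were lowest in Saline 1. Zic4, a zinc finger factor gene, differed by log2 0.74 (SE 0.255, edgeR adjusted p = 0.546) and Foxc2, a forkhead factor gene of mesenchyme, 1.16 (SE 0.419, edgeR adjusted p = 0.593). Of 18 other markers, 16 were lowest in Saline 1. Gpc3, a glypican gene, had 0.58 (SE 0.216, edgeR adjusted p = 0.604) and Pdgfra, a receptor gene of fibroblasts and oligodendrocyte precursors, 0.20 (SE 0.0843, edgeR adjusted p = 0.694).

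**Figure D5:**
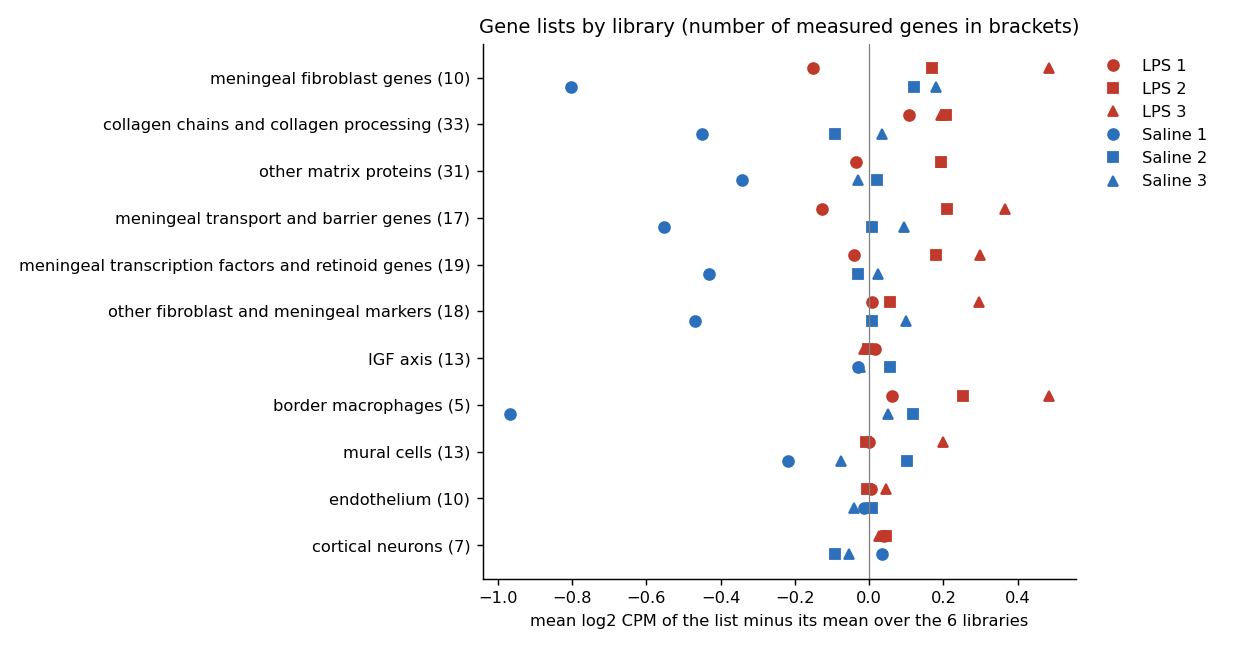
Mean log2 CPM of each gene list minus its mean over the 6 libraries, one point per library, with LPS in red above and saline in blue below. Saline 1 (blue circle) is the lowest library for the 10 genes (-0.80), the meningeal and matrix lists, border macrophages (-0.97) and mural cells (-0.22). It is also lowest for the IGF axis, by a small margin (-0.031, beside -0.025 in Saline 3). It lies at -0.01 for endothelium and 0.03 for cortical neurons. The border macrophage value averages 5 genes, and in Saline 1 Lyve1 and Cd163 were at only 0.37 and 0.39 CPM. Stab1, at 19.4 CPM in Saline 1, was lowest in Saline 3.

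Markers of other cells that sit in or near the meninges moved with Saline 1 to different degrees. Of 8 border macrophage markers, 5 were measured and 4 were lowest in Saline 1, and they summed to 30.3 to 34.5 CPM over LPS libraries, against 23.2 to 32.2 CPM over saline libraries. Pf4, Cbr2 and Ms4a7 were not among the rows analysed here. All 13 mural cell markers were measured, summing to 493 to 559 CPM in LPS libraries, against 464 CPM in Saline 1 and 475 and 529 CPM in the other saline libraries. The 10 endothelial markers summed to 444 to 451 CPM over LPS libraries, against 440 to 454 CPM over saline libraries, with Saline 1 the highest. Of 10 choroid plexus markers 1, Kl, was measured, at 3.24 to 4.44 CPM over LPS libraries, against 2.46 to 4.28 CPM over saline libraries. The part of these cell types in the values of the 10 genes was not tested.

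Outside the 10 genes, those with the most similar pattern were ranked by Pearson's r with the mean log2 CPM of the 10 over the 6 libraries. The 10 highest were Aebp1 (r = 0.990), Bmp6 (0.988), Alx4 (0.983), Slc13a4 (0.981), Jmjd7 (0.979), Gjb2 (0.979), Cd163 (0.975), Aox3 (0.975), Rgs6 (0.975) and Aldh1a2 (0.972). All were lowest in Saline 1, which a high r makes likely, since Saline 1 is the lowest library in that mean. On the fixed lists were 5 of the 10, and the share among the 963 genes ranked is not given here. Since the 10 were chosen for a high r among many genes over 6 points, the r values are a description with no test. Leaving out Saline 1 gave r from 0.880 to 0.961, and leaving out Saline 1 and LPS 3, the libraries farthest from the median, gave 0.703 to 0.981. Aebp1, which encodes a collagen-binding secreted protein, had 15.8, 24.0 and 28.1 CPM in the LPS libraries, against 9.53, 20.1 and 21.1 CPM in the saline libraries. Bmp6, a growth factor gene of the meninges, had 9.39, 14.5 and 17.0 CPM in the LPS libraries, against 5.42, 12.5 and 14.9 CPM in the saline libraries. In each of these 2 genes Saline 1 was low, LPS 3 high and LPS 1 second lowest.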

How the data were processed

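The table held, per gene and library, raw read counts and FPKM values deposited by the authors. The submitters' processing notes list GRCm38, DESeq 1.10.1 and TopHat2 2.1 without saying how each was applied, with counting program and annotation not given in the sources used here. Of 14250 rows, 688 had no Ensembl identifier. Positions came from GENCODE M21 (GRCm38) and promoters from RefSeq. The library kit is not stated to keep strand.

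The test was edgeR 4.0.16 on the deposited counts (quasi-likelihood, robust, TMM factors, filterByExpr) in R 4.3.3, over all rows and 6 libraries, two-sided, with Benjamini-Hochberg adjustment and a threshold of 0.05. CPM used TMM factors, and log2 CPM a prior count of 2. The 10 genes, the lists and the naming rule were chosen with earlier results of these data known. In the lists the 2 genes with the smallest p were named; similar genes had a mean of at least 1 CPM and a range of at least 1 log2 unit. Alternatives were a replicate block, dropping single libraries, RLE factors, DESeq2 1.42.0, limma-voom (limma 3.58.1), edgeR without its robust option, an unfiltered table, rows averaging 50 counts or more, and limma on log2(FPKM + 1). DESeq2 without Saline 1 was added after seeing the data. The steps were tested on simulated counts with independent noise, which held no shift of a gene group in a single library. P-values measure the spread between mice; libraries were not near-duplicates (chi-square per degree of freedom at least 32.1). Over all genes, same-numbered libraries did not deviate together (r of -0.0266, 0.0252 and 0.0421). The mean log2 CPM of the 10 genes, however, rose with the replicate number in both groups. Its deviations were -0.15, 0.17 and 0.48 in LPS 1 to LPS 3, and -0.80, 0.12 and 0.18 in Saline 1 to Saline 3. Neither observation settles whether the numbers pair the mice, and the main fit did not pair them.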

Additional observations from a re-analysis of the deposited data

How the results depend on the processing

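None of the 10 genes was called lower under any alternative run, and 1 was called higher with the replicate number as a block: Ptgds, with log2 0.60 and an edgeR adjusted p of 0.0130, beside 0.803 without the block. Whether the replicate numbers pair the mice is not known. Among all genes the block gave 10 higher and 21 lower, beside 14 and 27 without it. It lowered the SE of each of the 10 genes. The SE went from 0.381 to 0.061 for Ptgds, from 0.417 to 0.077 for Igf2 and from 0.221 to 0.194 for Mgp. Of 140 pairs of gene and alternative, 134 kept direction and side of the threshold and 5 reversed. The filter removed 0 rows, so the unfiltered table repeated the main fit and its pairs could not differ. Leaving out 1 library gave log2 changes of -0.14 to 0.12 for Igfbp2 (reversed without Saline 1, LPS 2 or LPS 3), -0.031 to 0.59 for Slc6a13 and -0.058 to 0.28 for Mgp (both reversed without Saline 1). The median log2 change of the 10 ranged from 0.08 (without Saline 1) to 0.56 (without Saline 3) when 1 library was left out. DESeq2 called 6 of the other meningeal and fibroblast genes higher, 3 of them without Saline 1, an alternative added after seeing the data; edgeR without any 1 library called 0. Among all genes, DESeq2 called 60 higher and 80 lower, and limma on FPKM called 8 higher. The cause was not tested. The 95% intervals of the log2 changes of 9 of the 10 genes span more than 1 unit.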
